A study of Homo sapiens with 6 samples.

Results

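RASSF4 and DEPP1 are neighbouring human genes that lie on opposite strands of chromosome 10, with DEPP1 placed inside the span of RASSF4. They are the 2 genes described here, of 22153 in the deposited table, and were chosen by their values in these libraries, namely the higher reads of both in hypoxia than in normoxia, together with the overlap of their spans. RASSF4 (ENSG00000107551) is on the plus strand from 44959407 to 44995891, and DEPP1 (ENSG00000165507) is on the minus strand from 44970981 to 44978810 (GENCODE 29, GRCh38). Polyadenylated RNA was sequenced from EA.hy926, a line made by fusing human umbilical vein endothelial cells with A549 lung carcinoma cells. In 3 libraries the cells had spent 8 h at 1% oxygen (hypoxia), and in 3 libraries they were kept at 20% oxygen (normoxia). No gene was altered in either group, all 6 libraries come from the same line, and the labels do not say whether replicates were separate cultures, so the spread between them may be technical.

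RASSF4 belongs to the Ras association domain family, a group of scaffold proteins without enzyme activity that bind Ras-like GTPases. Its members with a C-terminal SARAH domain, RASSF4 among them, can bind the MST kinases of the Hippo pathway, which restrains the co-activators YAP and TAZ. DEPP1, the decidual protein induced by progesterone, is expressed in endothelial cells and is a transcriptional target of FOXO factors. In human neuroblastoma cells it has been placed at peroxisomes and mitochondria and linked to lower catalase activity. At low oxygen, hypoxia-inducible factors (HIF) bind short sites in the DNA near the genes they switch on.

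Both genes are annotated in ways that matter for reading their values, because reads were summed per gene. The exons of the 2 genes share a single stretch of 695 bases, from 44970981 to 44971675. It makes up 7.33% of the 9481 exon bases of RASSF4 and 23.3% of the 2979 exon bases of DEPP1. On the RASSF4 side the stretch belongs to 1 of 12 transcripts, RASSF4-211, in which an intron is retained. On the DEPP1 side it is the last exon, in the direction of transcription, of 1 of 3 transcripts, the non-coding DEPP1-203. The 4 protein-coding transcripts of RASSF4 and the 2 of DEPP1 have 0 exon bases in common. The coding transcript DEPP1-201 lies from 44976129 to 44978810, wholly within intron 3 of RASSF4-201, with 4280 intron bases between it and the RASSF4 exon before it and 3710 to the next. In RefSeq, DEPP1 has 1 transcript, which spans 2682 bases and does not reach the shared stretch. RASSF4 exons also share 98 bases with TMEM72-AS1 and 52 with ENSG00000273363, both on the minus strand, which had 0 and 2 reads in all 6 libraries together.

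**Figure D1:**
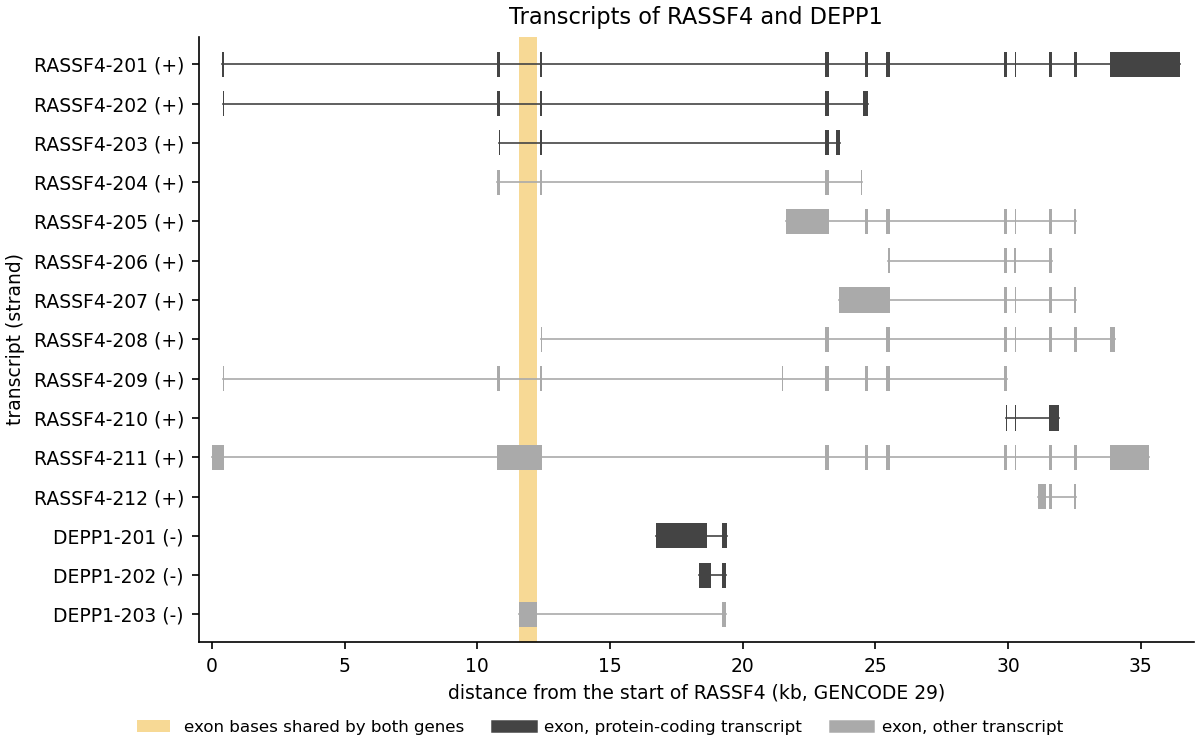
Exons (boxes) of the 12 RASSF4 and 3 DEPP1 transcripts in GENCODE 29, by distance in kb from the start of RASSF4, with protein-coding transcripts dark and others grey. The band marks the 695 exon bases annotated to both genes, which only RASSF4-211 and DEPP1-203 contain.

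The start regions of both genes are shown because each gene has its own, well apart from the other, and their letters differ. Each is the 250 bases before the RefSeq start (GRCh38.p14), written 5′ to 3′ on the strand of the gene, chr10:44959552-44959801 (plus) for RASSF4 and chr10:44978810-44979059 (minus) for DEPP1. Capitals mark matches to the HIF core motif, ACGTG or GCGTG, and to the FOXO motif GTAAACA, searched on both strands.
RASSF4: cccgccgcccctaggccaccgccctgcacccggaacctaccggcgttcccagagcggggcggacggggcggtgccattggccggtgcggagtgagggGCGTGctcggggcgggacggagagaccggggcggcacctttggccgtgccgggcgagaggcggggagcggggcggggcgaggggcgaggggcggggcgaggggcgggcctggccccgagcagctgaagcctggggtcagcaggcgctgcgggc
DEPP1: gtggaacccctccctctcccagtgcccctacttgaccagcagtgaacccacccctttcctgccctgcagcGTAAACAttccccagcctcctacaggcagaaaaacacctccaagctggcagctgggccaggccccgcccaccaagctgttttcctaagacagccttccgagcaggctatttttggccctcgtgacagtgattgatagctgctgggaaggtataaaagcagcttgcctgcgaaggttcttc
The RASSF4 region held GCGTG once, 153 bases before the start, and no GTAAACA. The DEPP1 region held GTAAACA once, 180 bases before the start, and neither form of the HIF motif. Of 35116 RefSeq regions of the same length, 43.2% held ACGTG or GCGTG, so a match of that kind is common, while 2.98% held GTAAACA. The form ACGTG also lies within the E-box CACGTG, which other factors bind. The RASSF4 region was 80.0% G and C with 32 CpG pairs, against 57.2% and 5 in the DEPP1 region. A match is a description of the letters and says nothing on binding in these cells.

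RASSF4 stood far higher in every hypoxia library than in any normoxia library. The values are reads per gene divided by the authors' size factor of the library, called scaled reads below. RASSF4 had 900, 1394 and 1046 scaled reads in hypoxia replicates 1, 2 and 3, from 868, 1344 and 1100 reads. It had 87.9, 97.5 and 101 scaled reads in normoxia replicates 1, 2 and 3, from 83, 103 and 107 reads. The groups were well apart, and the lowest hypoxia value was 8.95-fold the highest normoxia value. The mean was 1113 ± 254 in hypoxia and 95.4 ± 6.63 in normoxia (SD, n = 3 each), an 11.7-fold difference.

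DEPP1 also stood higher in all hypoxia libraries, with more spread within each group. It had 2214, 6574 and 3220 scaled reads in hypoxia replicates 1, 2 and 3, from 2135, 6340 and 3387 reads. It had 448, 411 and 234 in normoxia replicates 1, 2 and 3, from 423, 434 and 249 reads. Hypoxia replicate 2 was the highest library and normoxia replicate 3 the lowest, and the groups did not overlap. The mean was 4003 ± 2283 in hypoxia and 364 ± 114 in normoxia (SD, n = 3 each), an 11.0-fold difference. From the lowest hypoxia to the highest normoxia library the fold was 4.94, and from the highest hypoxia to the lowest normoxia library it was 28.1. Relative to the mean, the SD of DEPP1 was 57.0% in hypoxia and 31.4% in normoxia, and that of RASSF4 was 22.8% in hypoxia and 6.96% in normoxia.

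**Figure D2:**
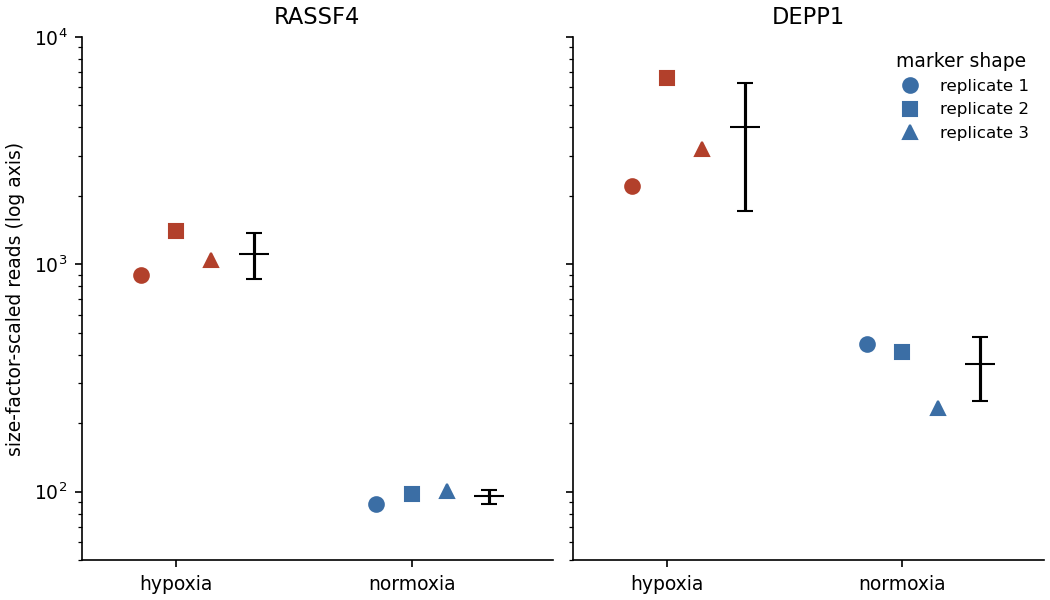
Size-factor-scaled reads (log axis) of RASSF4 (left) and DEPP1 (right) in each hypoxia and normoxia library, with marker shape giving the replicate and the black bar the mean ± SD of 3 libraries. The groups do not overlap for either gene, and DEPP1 is more spread than RASSF4 within both groups.

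Per length, DEPP1 was the more abundant of the pair in both groups. Over all annotated exons, DEPP1 averaged 75.2 ± 42.9 FPKM in hypoxia and 6.85 ± 2.15 FPKM in normoxia (SD, n = 3 each), while RASSF4 averaged 6.57 ± 1.5 FPKM and 0.563 ± 0.039 FPKM in the same groups. By its FPKM over all exons, RASSF4 was thus a weakly expressed gene at 20% oxygen. Among 10237 genes that passed the filter on low values, RASSF4 ranked 4786 by mean FPKM in hypoxia and 10225 in normoxia. That filter removed genes this low in normoxia unless their hypoxia libraries passed it. The normoxia rank of RASSF4 was therefore largely set by the filter. DEPP1 ranked 631 in hypoxia and 4709 in normoxia. Of the 9481 exon bases of RASSF4, 4171 belong to protein-coding transcripts, so its level depends on the length used. Over the longest coding transcript of each gene (3641 bases for RASSF4, 2120 for DEPP1), RASSF4 averaged 17.1 ± 3.90 FPKM in hypoxia and 1.47 ± 0.10 in normoxia, and DEPP1 106 ± 60.3 in hypoxia and 9.62 ± 3.02 in normoxia. The filter asked for an FPKM of at least 1 in at least 3 libraries. RASSF4 passed it through its hypoxia libraries alone, since its highest normoxia value over all exons was 0.594 FPKM, whereas DEPP1 passed it in all 6 libraries.

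In the limma fit over all tested genes, on the log2(FPKM + 0.1) scale, the difference between hypoxia and normoxia was 3.31 (SE 0.28) for RASSF4 and 3.34 (SE 0.43) for DEPP1. By this difference DEPP1 ranked 5 and RASSF4 ranked 6 of 10237 genes. Both genes were picked with these differences known, so they are given as a description and with no test. Of the genes tested, 0.0977% (10 genes, all higher in hypoxia) were called at an adjusted p under 0.05, and the groups did not overlap in 7.48%. By DESeq2 0.488% were called. Nothing is read from these shares for RASSF4 and DEPP1, which were picked on this contrast, and RASSF4 entered the fit through its hypoxia libraries alone.

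How far the 2 genes can be told apart was first asked of the table as a whole, since no source used here says whether reads were counted by strand. If reads on bases annotated to 2 genes had been credited to one of them, a gene with all its exon bases inside the exons of an expressed gene could collect reads from it. GENCODE 29 holds 257 genes of at least 200 exon bases that are wholly covered by opposite-strand exons of genes with a mean FPKM of at least 1. Of these, 0 were listed in the table. Allowing 3 genes for a count of 0, a rule of thumb, gives a share of up to 1.17%. Of 121 genes covered in the same way by exons on their own strand, 5 (4.13%) were listed, at no more than 0.861 reads per kb and library. By contrast, 2788 (82.7%) of 3371 genes with under 50% of their exon bases covered from the opposite strand were listed, and 12161 (34.5%) of 35249 genes with no exon overlap. Genes that the authors' annotation lacked would be unlisted too, and that annotation is not given here. The lowest total of a listed gene was 2 reads, so an unlisted gene is not shown to have had none. In this table, then, no gene was listed whose exon bases are all of the kind that RASSF4 and DEPP1 share.

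**Figure D3:**
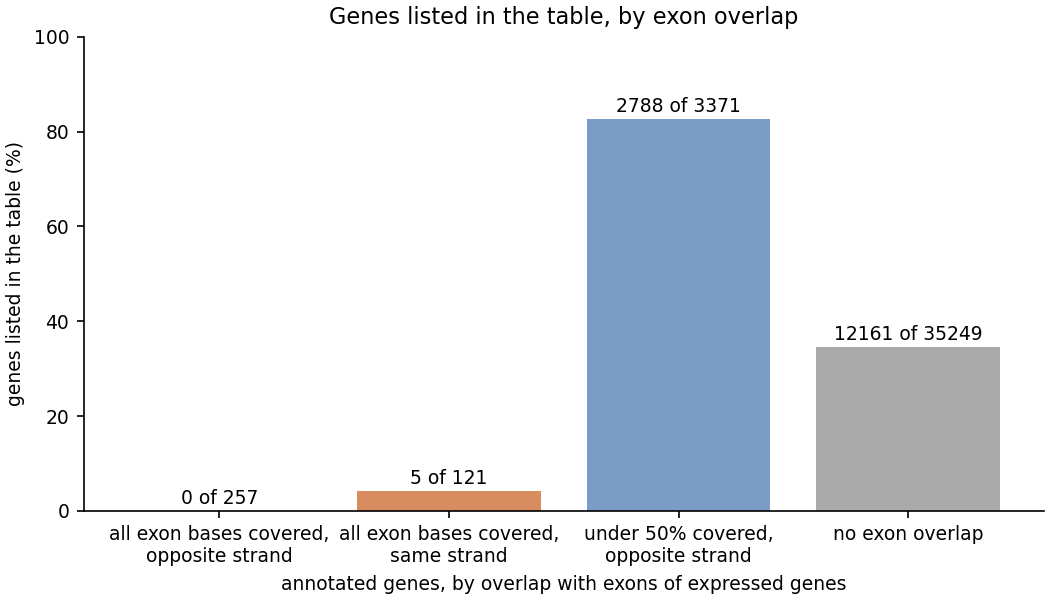
Percentage of GENCODE 29 genes (at least 200 exon bases) listed in the table, by how much of their exons is covered by exons of expressed genes, with counts above the bars. None of the 257 genes wholly covered from the opposite strand is listed, beside 4.13% of those covered on their own strand, 82.7% of those covered by under 50% and 34.5% of those with no overlap.

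The size of what the shared stretch could hold was then set beside the reads of RASSF4. With DEPP1 reads spread evenly over its 2979 exon bases, the 695 shared bases would hold 517, 1534 and 751 scaled reads in hypoxia replicates 1, 2 and 3, against 105, 95.9 and 54.6 in normoxia replicates 1, 2 and 3. RASSF4 itself had 900, 1394 and 1046 in those hypoxia libraries and 87.9, 97.5 and 101 in those normoxia libraries. In 4 libraries the even spread gave fewer reads than RASSF4 had, and in hypoxia replicate 2 and normoxia replicate 1 it gave more. If the DEPP1 reads all lay on its 2284 unshared bases, the shared stretch at that density would hold 674, 2000 and 980 scaled reads in hypoxia replicates 1, 2 and 3, against 136, 125 and 71.3 in normoxia replicates 1, 2 and 3. That is less than RASSF4 had in 3 libraries and more in hypoxia replicate 2 and normoxia replicates 1 and 2. By size alone, then, the shared stretch is not small beside RASSF4. Whether any read on the stretch was credited to RASSF4, to DEPP1 or to neither gene was not tested. An even spread would need DEPP1-203, the only DEPP1 transcript with that exon, to be as abundant as the coding transcript, and gene totals do not show which transcript was read. In the other direction, RASSF4 reads spread evenly would put at most 102 scaled reads on the stretch, in hypoxia replicate 2, where DEPP1 had 6574.

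The ratio of the genes within a library does not depend on how that library was scaled. There were 0.407, 0.212 and 0.325 RASSF4 reads per DEPP1 read in hypoxia replicates 1, 2 and 3, and 0.196, 0.237 and 0.430 in normoxia replicates 1, 2 and 3. The ratios of the groups overlapped over most of their range, with a mean of 0.314 ± 0.098 in hypoxia and 0.288 ± 0.125 in normoxia (SD, n = 3 each). The log2 ratio was 0.16 higher in hypoxia, well inside the SDs of 0.48 (hypoxia) and 0.59 (normoxia). The means differed between oxygen levels by 11.7-fold for RASSF4 and 11.0-fold for DEPP1. With 3 libraries per group and this spread, the factors are not shown to be equal. Both genes were also picked for large differences. Their ratio varied about 2-fold inside each group, 1.92-fold in hypoxia and 2.19-fold in normoxia.

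The counting error of each ratio was smaller than the range of the ratios inside its group. The exact 95% binomial (Clopper-Pearson) intervals of the ratio were 0.375 to 0.440, 0.200 to 0.225 and 0.303 to 0.348 in hypoxia replicates 1, 2 and 3, and none of these overlapped another. They were 0.153 to 0.249, 0.190 to 0.295 and 0.339 to 0.541 in normoxia replicates 1, 2 and 3. There the last lay above the others, and those of replicates 1 and 2 overlapped. These intervals cover counting error only, not the spread between separate libraries, so they do not show whether the genes shared reads. Between hypoxia replicates 2 and 1, DEPP1 was 2.97-fold higher and RASSF4 1.55-fold higher. Between normoxia replicates 1 and 3, DEPP1 was 1.91-fold higher, whereas RASSF4 was not, at 0.874-fold. In hypoxia the libraries thus had the same order for both genes, with replicate 2 highest and replicate 1 lowest. In normoxia the order was opposite, but RASSF4 had 83, 103 and 107 reads there, too few and too close for a sure order.

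**Figure D4:**
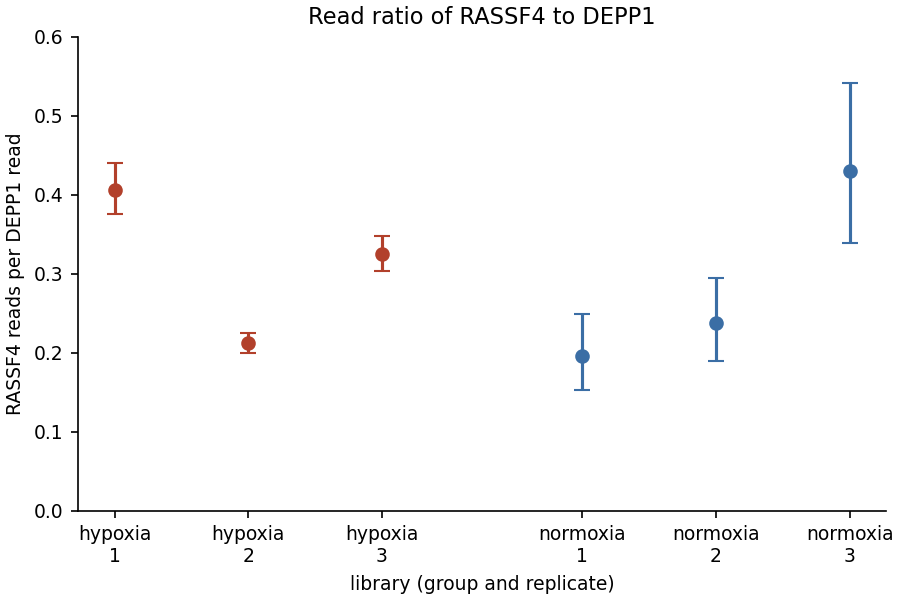
RASSF4 reads per DEPP1 read in each hypoxia and normoxia library, with exact 95% binomial intervals for counting error. The ratio ranges from 0.212 to 0.407 in hypoxia and from 0.196 to 0.430 in normoxia, so the groups overlap while libraries of 1 group differ.

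No other tested pair of overlapping opposite-strand genes showed a joint difference as large. Among 977 pairs of tested genes on opposite strands that share exon bases, 516 (52.8%) had log2 differences of the same sign, and the median gap between partners was 0.23. RASSF4 and DEPP1 were the 1 pair in which both partners differed by at least 1 in the same direction, and the gap between them was 0.03. The same held among the 222 pairs sharing at least 500 bases, of which 118 (53.2%) had the same sign. With 101 shared bases, NARF and NARF-AS2 fell just short of both reaching 1, at 0.97 and 1.49. Since the pair was chosen for its differences, its place among the others is a description.

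**Figure D5:**
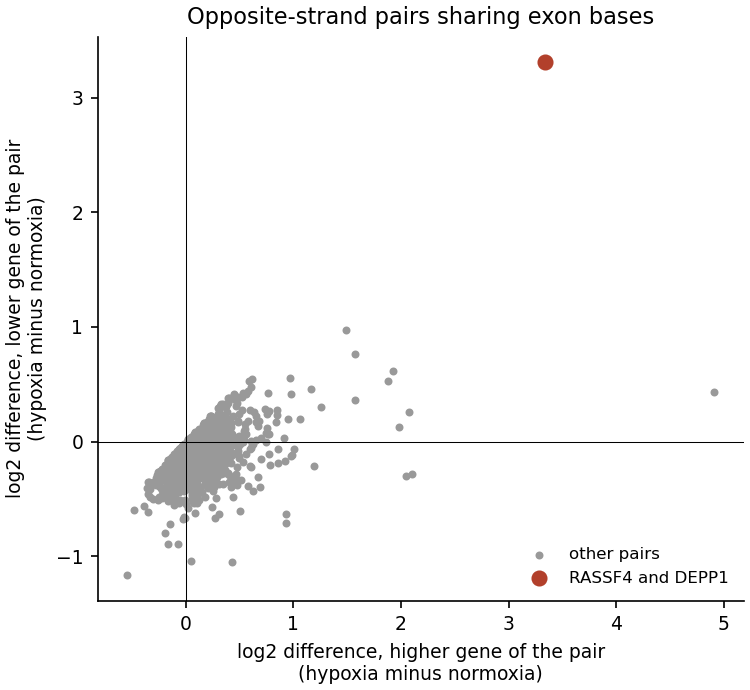
Log2 difference (hypoxia minus normoxia, limma) of the higher partner (horizontal axis) and of the lower partner (vertical axis) in 977 opposite-strand gene pairs that share exon bases. RASSF4 and DEPP1 (red) lie above 3 on both axes, apart from the other pairs.

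The 2 other genes within 500 kb that could be tested did not share the difference of the pair. Of 32 annotated genes within 500 kb, 14 were listed and 4 passed the filter: RASSF4, DEPP1, ZNF22 and MARCHF8. ZNF22, which encodes a zinc finger protein and lies beyond the end of RASSF4 on the same strand, had 309, 163 and 266 scaled reads in hypoxia replicates 1, 2 and 3, against 101, 170 and 475 in normoxia replicates 1, 2 and 3. Its groups overlapped throughout, and its log2 difference was 0.23 (95% interval -1.02 to 1.48). MARCHF8, a membrane-bound ubiquitin ligase, had 301, 632 and 382 in hypoxia, against 552, 504 and 326 in normoxia, and a log2 difference of -0.10 (95% interval -0.92 to 0.72). Neither interval reaches the differences of RASSF4 and DEPP1. The antisense transcript ZNF22-AS1 was below the filter, with 34, 37 and 51 reads in hypoxia and 26, 24 and 38 in normoxia.

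By profile, the 6 libraries place each gene close to the other and to a small set of genes elsewhere in the genome. Likeness was measured as the root mean square gap between log2 profiles, each centred on its own mean, over 6 libraries and against 10236 other genes. The genes closest to RASSF4 were BNIP3 (0.29), ENO2 (0.30), SLC2A1 (0.34) and SPAG4 (0.36), with DEPP1 next at 0.43. Those closest to DEPP1 were PFKFB4 (0.29) and SLC2A1 (0.36), then RASSF4 at 0.43, SPAG4 (0.44) and ENO2 (0.45). Each gene therefore had closer counterparts on other chromosomes, or far along the same chromosome, than its overlapping partner. With so few libraries, a likeness of this kind is a coarse description. The profiles also contain the difference between hypoxia and normoxia for which RASSF4 and DEPP1 were picked. Genes with differences of similar size lie close by this measure for that reason alone. The closeness of RASSF4 and DEPP1 to each other and to the genes named is thus no finding separate from that choice. The genes named as closest all had large group differences, with log2 values from 2.81 (ENO2) to 3.62 (PFKFB4). The gap of 0.43 between RASSF4 and DEPP1 came mostly from spread within the groups, as their log2 differences were 3.31 and 3.34.

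Of the 9 other members of the RASSF family, 7 were listed and 5 tested, with 0 called by limma, edgeR or DESeq2 and 1, RASSF7, at an unadjusted limma p under 0.05. Over all genes tested 0.0977% were called by limma, 0.488% by DESeq2 and 2.69% had an unadjusted limma p under 0.05, so calls among so few genes would be rare in any list. The median log2 difference of the 5 was 0.24, against 0.00 over all genes tested. RASSF7, a member with the Ras association domain at its N terminus, had 1371, 1777 and 1513 scaled reads in hypoxia replicates 1, 2 and 3, against 1034, 831 and 827 in normoxia replicates 1, 2 and 3. Like those of RASSF1, its groups did not overlap, which held for 7.48% of all genes tested. The log2 difference was 0.79 (95% interval 0.31 to 1.27), which limma did not call at an adjusted p of 0.941 (0.207 to 1.00 over 15 alternatives). RASSF1, a tumour suppressor that binds MST kinases, averaged 1198 ± 70.7 in hypoxia and 975 ± 109 in normoxia, and RASSF3 averaged 2769 ± 619 in hypoxia and 2323 ± 298 in normoxia (SD, n = 3 each). Their log2 differences were 0.30 (95% interval -0.17 to 0.76) and 0.24 (95% interval -0.30 to 0.78). RASSF5 and RASSF9 had at most 13 reads in any library.

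The Hippo pathway is the one to which the SARAH-domain RASSF proteins connect. Of 20 core genes, 16 were tested, 7 with positive and 9 with negative log2 differences and a median of -0.09. In limma, edgeR and DESeq2 0 were called, and 0 had an unadjusted limma p under 0.05, beside 0.0977% (limma), 0.488% (DESeq2) and 2.69% (unadjusted) over all genes, so a count of 0 is near the background for a list of this size. The largest differences were those of STK4, which encodes the kinase MST1, at -0.35 (95% interval -0.95 to 0.24), and NF2, an upstream activator of the pathway, at -0.34 (-0.99 to 0.30). TEAD3 and TEAD1, DNA-binding partners of YAP and TAZ, had -0.28 (-0.88 to 0.31) and 0.23 (-0.52 to 0.99). Of 16 genes known as YAP and TAZ targets, 14 were tested, 7 in each direction, with a median of -0.02, 0 called by limma, edgeR or DESeq2 and 0 at an unadjusted limma p under 0.05, which is again near the background of 0.0977% (limma), 0.488% (DESeq2) and 2.69% (unadjusted). AJUBA, a LIM protein that binds the LATS kinases, had 0.59 (-0.04 to 1.23) and the muscle ankyrin repeat gene ANKRD1 0.51 (-1.08 to 2.10). AMOTL2, an angiomotin that binds YAP, had -0.43 (-1.04 to 0.19), and the matricellular gene CCN2 had 0.27 (-0.54 to 1.07).

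Besides DEPP1, the list of FOXO factors and their known targets held 28 genes, of which 24 were tested, 14 with positive and 10 with negative log2 differences and a median of 0.07. By limma 1 was called higher in hypoxia and 0 lower, beside 0.0977% called over all genes. By DESeq2 2 were called, BNIP3 higher and TXNIP lower, beside 0.488% over all genes, and 2 had an unadjusted limma p under 0.05, beside 2.69%. The gene called by both was BNIP3, a mitophagy receptor that is also a HIF target, at 6951, 5879 and 7254 scaled reads in hypoxia replicates 1, 2 and 3, against 520, 573 and 694 in normoxia replicates 1, 2 and 3 (log2 difference 3.47, SE 0.21, limma adjusted p = 0.00207, 6.68e-39 to 0.0422 over 15 alternatives). TXNIP, an inhibitor of thioredoxin and of glucose uptake, lay in the other direction, with 66.4, 61.2 and 80.8 in hypoxia, against 430, 372 and 111 in normoxia. Its log2 difference was -1.83 (95% interval -2.98 to -0.68), with an adjusted p of 0.974 by limma and 0.00505 by DESeq2 (0.00505 to 1.00 over 14 alternatives). FOXO1, one of the factors itself, averaged 158 ± 92.3 in hypoxia and 236 ± 19.9 in normoxia (SD, n = 3 each), a log2 difference of -0.67 (95% interval -1.58 to 0.24).

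Genes of peroxisomes and of peroxide removal belong to the setting in which DEPP1 has been studied. Of 28 genes, all listed, 26 were tested, 13 in each direction, with a median log2 difference of 0.01, 0 called by limma, edgeR or DESeq2 and 0 at an unadjusted limma p under 0.05. Beside 0.0977% (limma), 0.488% (DESeq2) and 2.69% (unadjusted) over all genes, these counts say nothing particular of the list. CAT, which encodes catalase, had 498, 414 and 573 scaled reads in hypoxia replicates 1, 2 and 3, against 343, 449 and 339 in normoxia replicates 1, 2 and 3, and its groups overlapped. Its log2 difference was 0.39 (95% interval -0.18 to 0.95). PEX5, the import receptor for peroxisomal proteins, had a log2 difference of 0.30 (95% interval -0.56 to 1.16).

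The libraries held 17226736 to 18652704 reads assigned to genes. Normoxia replicate 3, which had the lowest DEPP1 value and the highest ratio, had reads in 16741 genes, against 18214 to 18858 in the other libraries, and its part in these results was not tested beyond leaving it out. Of 12 endothelial markers, 11 passed the filter, with a summed FPKM of 642 to 1715 in hypoxia and 562 to 1237 in normoxia, and EMCN was below it. Of 5 epithelial markers KRT8 and KRT18 passed (summed FPKM 313 to 461 in hypoxia, 352 to 490 in normoxia), and of 4 fibroblast and mural and 3 leukocyte markers none did. In bulk RNA, more cells with a transcript and more transcript per cell cannot be told apart.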

How the data were processed

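Polyadenylated RNA of 3 hypoxia and 3 normoxia libraries was measured. Trizol extraction and a NEBNext Ultra RNA kit were used, per the labels' protocols. Per the submitters' processing notes, CASAVA, HISAT2 2.0.5 and featureCounts 1.5.0-p3 were used, and a mouse build is named, which human gene identifiers contradict. The true genome build, the annotation and the strand setting are not stated there.

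Although its name says FPKM, the deposited signal is the whole reads of a gene over 1 size factor per library. Within a tolerance of 0.05 of a step, 100% of values gave whole reads, which served as counts. GENCODE 29, which held all 22153 identifiers, gave exon lengths and overlaps. A symbol was found for 21988 of them.

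Values were put on an FPKM scale (summed exon length, mean library total). Genes with FPKM of at least 1 in at least 3 libraries were tested with limma 3.58.1 (R 4.3.3) on log2(FPKM + 0.1), which understates changes of weak genes, with trend and robust variances, two-sided, with Benjamini-Hochberg adjustment and a threshold of 0.05. edgeR 4.0.16 and DESeq2 1.42.0 on the recovered reads, other pseudocounts and filters, library total scaling, a GC correction, a replicate block and leaving out each library were alternatives. The fit was checked on simulated reads. Exon overlaps were computed between all annotated genes. The class of genes with under 50% of exon bases covered, and the lists without RASSF4 and DEPP1, were added after the data were seen.

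The members and gene lists were chosen with earlier results of these data known. Named genes were RASSF4 and DEPP1, the 5 nearest profiles of each, up to 4 tested members of each list with the largest absolute differences, tested genes within 500 kb and genes sharing exon bases with the pair. RASSF5, RASSF9 and ZNF22-AS1 are named besides, after their values were seen. Some members that this rule names are not reported here.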

Additional observations from a re-analysis of the deposited data

How the results depend on the processing

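RASSF4 and DEPP1 had positive log2 differences in all 15 alternatives of the fit, from 2.26 to 3.54 for RASSF4 and from 2.91 to 3.69 for DEPP1. With a pseudocount of 1 the difference of RASSF4 was 2.26, and the fitted difference of RASSF4 minus that of DEPP1 was -0.92, where a pseudocount of 0.1 gave -0.03. RASSF4 is below 1 FPKM in normoxia, so a pseudocount of 1 shrinks its difference more. Leaving out single libraries gave 3.14 to 3.45 for RASSF4, 2.91 to 3.69 for DEPP1, -0.25 to 0.29 for the gap between these fitted differences, and -0.07 to 0.49 for the log2 ratio of RASSF4 to DEPP1 reads (0.16 with all libraries). The number of genes called was 4 with no filter on low values, 19 with the replicate block, 28 after the GC correction and 50 by DESeq2, and ranged from 1 to 20 when single libraries were left out. The called members of all lists together, which include the pair chosen on this contrast, were 2, against 4 by DESeq2 and 1 to 4 when single libraries were left out. Over all genes tested, 0.0977% were called by limma, 0.488% by DESeq2 and 0.00977% to 0.195% when single libraries were left out. Nothing is read from these counts for the lists. Of the list members other than the pair, BNIP3 was called in all of these fits and TXNIP by DESeq2 and without normoxia replicate 3. Asking for 90% of exon bases covered in place of all, 1.88% of opposite-strand covered genes were listed (6 of 320), at no more than 7.62 reads per kb and library. Same-numbered libraries did not all deviate together (correlations of -0.40, 0.24 and 0.22). Libraries with different numbers gave correlations from -0.561 to 0.609, so these values do not settle whether the numbers pair the libraries. The count with the replicate block is given for completeness. RASSF4 in normoxia rests on 83 to 107 reads, which limits the precision of its ratio there.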
